A study of Homo sapiens with 12 samples.

Results

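IL32, the gene of the cytokine interleukin 32 (IL-32), is described here across 3 head and neck squamous cell carcinoma lines grown with or without cetuximab. It is 1 of 33514 gene symbols in the count tables, chosen by its symbol because its level with cetuximab, and the genes that vary with it from cell to cell in SCC25, were already known from earlier results of the same data. Its own levels, shares of positive cells, fold changes and correlations are therefore given as a description, with no test.

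The lines were SCC1, SCC6 and SCC25. Each was treated daily for 5 days with 100 nM cetuximab, a monoclonal antibody against the receptor EGFR that keeps its ligands from binding, or with saline buffer (PBS) in the control groups, and no engineered allele or further agent was named for any group. With 2 replicates per group there were 12 samples in 6 groups, profiled by droplet single-cell RNA sequencing. Whether replicates were separate cultures is not clear from the labels, so SDs, SEs and p-values cover the spread between these samples, which may be technical. Where a fit takes out the difference between replicate numbers within a line, its SEs and p-values cover only the spread left over.

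The samples held 961 to 2854 cells each, 23914 in all, with 57057402 to 112170073 unique molecular identifiers (UMIs, each counting 1 captured RNA molecule) per sample and a median of 24078.5 to 54864 UMIs per cell. Levels are UMIs of the gene per 1000000 UMIs of the sample (CPM). All 8 markers of squamous carcinoma were detected in every sample, but KRT5 and KRT14, keratins of the basal epithelial layer, were near 0 in SCC6 (0.967 to 4.57 and 0.379 to 2.58 CPM). Samples of different groups shared 1 to 13 cell barcodes, and samples of the same group 3 to 10.

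IL-32 is a pro-inflammatory cytokine first found in activated natural killer and T cells and also made by epithelial cells. Its transcription is known to be raised by TNF, IL-1 and interferons, in part through NF-kB. On other cells it induces TNF, IL-6 and chemokines, and it binds proteinase 3 (PRTN3) and integrins that contain the αV subunit. Carcinoma cells are among its known sources.

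In RefSeq on GRCh38.p14 the gene lies on the forward strand of chromosome 16 from 3065403 to 3069530, a span of 4128 bases with 19 annotated transcripts. The 250 bases before its first annotated start site are shown because they hold motifs of factors through which the inducing cytokines are known to act. In chr16:3065153-3065402 (forward strand, GRCh38.p14, sequence from RefSeq), capitals mark from left to right a CRE motif and a pair of overlapping NF-kB matches.
IL32 upstream: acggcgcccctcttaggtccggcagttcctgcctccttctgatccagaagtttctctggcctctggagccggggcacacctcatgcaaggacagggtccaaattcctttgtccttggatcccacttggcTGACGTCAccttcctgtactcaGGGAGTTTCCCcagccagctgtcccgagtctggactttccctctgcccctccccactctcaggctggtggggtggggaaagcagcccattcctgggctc
The CRE match (TGACGTCA) began 121 bases before the start site. The NF-kB matches, GGGAGTTTCC and GGAGTTTCCC, began 99 and 98 bases before it and overlap each other. Searching both strands of 35116 promoter windows, an NF-kB match stood in 9.96%, a CRE in 1.65%, an AP-1 motif (TGANTCA) in 6.57%, an interferon response element (TTTC, any 2 bases, TTTC) in 3.02% and an SRF (CArG) motif in 1.16%. The window shown held none of the last 3, and the window before the second annotated start site, inside the gene, held no match to any of the 5. A match is a run of letters and not a measured binding site.

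Without drug, IL32 was detected in all 3 lines. In SCC1 the PBS samples stood at 67.6 and 48.5 CPM, in SCC25 at 41.98 and 23.4 CPM and in SCC6 at 7.95 and 13.3 CPM. The means in this order were 58.1 ± 13.5, 32.7 ± 13.1 and 10.6 ± 3.78 CPM (SD, n = 2 each). SCC6 was the lowest line, with both samples below those of SCC25, whereas the nearest samples of SCC1 and SCC25 lay closer together than the SD of either group.

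With cetuximab, every sample stood above both PBS samples of its line. In SCC25 the cetuximab samples reached 920.2 and 177 CPM, 21.9 and 7.55 times the PBS sample of the same replicate number. In SCC1 they reached 478 and 97.6 CPM, 7.06 and 2.01 times. In SCC6 they reached 83.5 and 100.3 CPM, 10.5 and 7.54 times.
The lines differed in how close the replicates were. The higher cetuximab sample was 5.21 times the lower one in SCC25 and 4.90 times in SCC1, replicate 1 being the higher in both, and 1.202 times in SCC6. The lowest cetuximab sample exceeded the highest PBS sample 4.21 times in SCC25, 6.28 times in SCC6 and 1.44 times in SCC1. The cetuximab means were 548 ± 526 CPM in SCC25, 288 ± 269 CPM in SCC1 and 91.9 ± 11.9 CPM in SCC6 (SD, n = 2 each). The order of the lines under cetuximab is not settled by these samples, since the ranges of SCC1 and SCC25 overlapped and the lower SCC1 sample lay below the higher SCC6 sample.

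**Figure D1:**
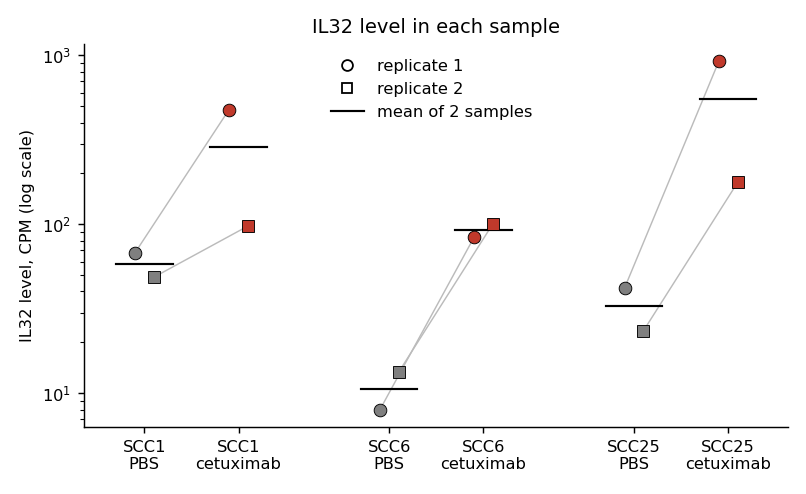
IL32 level in CPM on a log scale for each of the 12 samples; circles and squares are replicates 1 and 2, grey lines join samples with the same number and black bars are means of 2 samples. Cetuximab samples sit above PBS samples in each line, and replicate 1 is far above replicate 2 in SCC25 (920.2 and 177 CPM) and SCC1 (478 and 97.6 CPM) but not in SCC6.

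On the log2 scale, edgeR's estimates of the cetuximab difference of IL32 were 4.05 ± 0.84 in SCC25, 2.90 ± 0.80 in SCC6 and 2.26 ± 0.78 in SCC1 (± SE), and with the replicate number as a block 3.66 ± 0.51, 2.92 ± 0.49 and 1.87 ± 0.48. Among 7583 genes with a mean of at least 10 CPM the unblocked estimate held position 3 from the top in SCC25, 17 in SCC6 and 23 in SCC1, and among all 17897 genes tested position 15, 257 and 290. Both cetuximab samples lay above both PBS samples for 24.7% of the 17897 genes tested in SCC1, 37.4% in SCC6 and 16.3% in SCC25, and in all 3 lines for 5.51%. Without cetuximab replicate 1 the estimate was 2.44 in SCC25 and 0.72 in SCC1.

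More cells held IL32 with cetuximab, and positive cells held more of it. To compare cells at equal depth, each was thinned at random to 15000 UMIs, which left out 851 shallower cells, 262 of them in cetuximab replicate 1 of SCC6. In SCC25, 23.0% and 19.2% of PBS cells had at least 1 IL32 UMI, against 97.5% and 57.3% with cetuximab. In SCC1 the shares were 39.8% and 32.0% against 87.6% and 44.6%, and in SCC6 7.504% and 9.48% against 40.2% and 41.1%.
Exact 95% Clopper-Pearson intervals, which cover counting error only, were apart between PBS and cetuximab in SCC25 and SCC6. In SCC1 that of PBS replicate 1 (37.1% to 42.7%) overlapped that of cetuximab replicate 2 (41.9% to 47.3%). Mean shares differed by 56.3 percentage points in SCC25, 32.1 in SCC6 and 30.2 in SCC1, and without cetuximab replicate 1 by 36.2 in SCC25 and 8.69 in SCC1. Before thinning the shares ran from 13.95% in SCC6 PBS replicate 1 to 99.3% in SCC25 cetuximab replicate 1.

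A positive SCC25 cell held 2.41 and 1.95 IL32 UMIs on average with PBS and 13.9 and 4.33 with cetuximab. In SCC1 the means were 2.08 and 2.06 against 6.79 and 2.77 UMIs, and in SCC6 1.53 and 1.81 against 2.77 and 3.45. Cells with 10 or more UMIs made up 48.7% and 6.67% of the SCC25 cetuximab samples, 22.0% and 1.78% of those of SCC1, 1.43% and 2.93% of those of SCC6, and at most 0.914% of a PBS sample.
Cells of a sample were uneven. The variance of IL32 UMIs was 2.49 to 13.1 times the mean, where an even spread would give 1. An even spread of the same mean would have left 8.36% of cells of SCC25 cetuximab replicate 2 without a UMI, and 42.7% had none. Before thinning, so with unequal depth between cells, the tenth of cells with most IL32 UMIs held 37.5% and 58.8% of them in the SCC25 cetuximab samples. In the SCC25 PBS samples it held 74.6% and 68.6%.

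**Figure D2:**
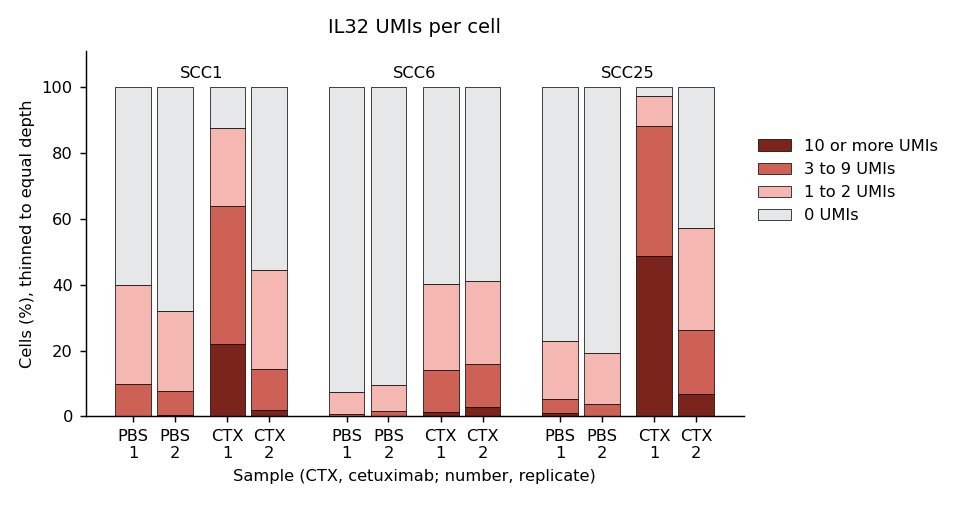
Share of cells in percent with 0, 1 to 2, 3 to 9 and 10 or more IL32 UMIs in each sample, all cells thinned to 15000 UMIs. The class of 10 or more holds 48.7% of cells in SCC25 cetuximab replicate 1 and at most 0.914% in a PBS sample.

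These r values used all cells without thinning, with IL32 as UMIs per 10000 on a log2 scale. With the cell's total UMIs r ran from 0.00558 to 0.364 over the samples, highest in cetuximab replicate 1 of SCC1, and with the mitochondrial share from -0.140 to 0.0236. The SCC6 cetuximab samples, with medians of 24078.5 and 50156 UMIs per cell, had thinned shares of 40.2% and 41.1%. Of 13 immune cell markers 5 to 8 were at 0 in each sample, and PTPRC, the CD45 gene of leukocytes, reached at most 0.0669 CPM. Their summed level was 17.6 to 31.9 CPM in SCC1, 4.70 to 28.1 CPM in SCC6 and 119 to 194 CPM in SCC25, where the lysosomal protein CD68 gave 116 to 188 CPM of it. No cell type that lacks IL32 was there for comparison, and the level of IL32 in free RNA was not measured.

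Neighbouring genes on chromosome 16 were looked at next. Of the up to 5 protein-coding genes on each side, 7 could be tested, and none was called higher in any line in either fit. MMP25, a metalloproteinase gene and the nearest measured one before IL32, reached at most 0.421 CPM. At these low levels both cetuximab samples lay above both PBS samples in SCC1 and SCC25, as for 24.7% and 16.3% of genes tested. In SCC6 both lay below. ZNF205, a zinc finger gene and the first tested one after IL32, lay between 11.7 and 15.8 CPM in the 12 samples. BICDL2 fell in SCC6 by 1.17 ± 0.28 on the log2 scale (edgeR FDR 0.0457), from 26.2 and 21.5 CPM to 13.8 and 11.1 CPM. THOC6, of the complex that couples transcription to mRNA export, was called lower only with the replicate block, at -0.56 in SCC1 (FDR 0.0441) and -0.43 in SCC6 (FDR 0.0384).

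FDR is the Benjamini-Hochberg adjusted p of edgeR's quasi-likelihood test over 17897 genes, and a gene is called at an FDR under 0.05. The fit without a block called 0.0168% of genes in SCC1, all higher with cetuximab, 3.81% in SCC6 (2.51% higher and 1.3% lower), and 0 in SCC25, where 1041 genes had an unadjusted p under 0.05 and DESeq2 called 100. With the replicate block it called 4.45% in SCC1 (2.46% higher and 1.99% lower), 20.1% in SCC6 (9.94% and 10.1%) and 0.978% in SCC25 (0.771% and 0.207%). Counts of list members below are from the blocked fit unless said otherwise, and are to be read against these shares. Without the block edgeR called no member of any list in SCC1 or SCC25.

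Of 6 tested cytokines that induce IL32, none was called higher in any line, and in SCC6 3 were called lower. The list's median log2 difference without the block was 1.28 in SCC1, 1.00 in SCC25 and -1.19 in SCC6, with 4, 5 and 2 of the 6 above 0, and its part in the level of IL32 was not tested. The 3 in SCC6 were IL1A, IL1B and, named after its values were seen, IL18. IL1B, a secreted form of IL-1, fell in SCC6 by 2.53 ± 0.57 without the block (FDR 0.0406), from 73.8 and 47.7 CPM to 9.95 and 14.9 CPM. TNF reached at most 2.83 CPM, in cetuximab replicate 1 of SCC25.
Among 12 tested receptors of these inducers, TLR3 for double-stranded RNA among them, 1 was called higher in SCC1 and 1 in SCC25, and 2 were called lower in SCC6, none of them without the block. The one in SCC25 was IL1RAP, the shared subunit of IL-1 receptors, at 20.4 and 15.7 CPM with PBS and 34.5 and 28.1 CPM with cetuximab (0.77 ± 0.13 on the log2 scale, blocked FDR 0.0414). Named after their values were seen, the others were TLR3 in SCC1 and IL18R1, beside IFNGR2, in SCC6.

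Of 9 genes for proteins that bind IL-32 or act with it, the subunits of the αVβ6 integrin were called in more than 1 line. ITGAV, the αV subunit, was at 33.9 and 21.9 CPM with PBS and 109 and 44.6 CPM with cetuximab in SCC25 and at 17.9 and 15.3 against 46.8 and 39.3 CPM in SCC6. ITGB6, the β6 subunit, was at 8.41 and 10.2 against 51.7 and 39.7 CPM in SCC6, 23.1 and 13.3 against 82.0 and 29.9 CPM in SCC1 and 39.0 and 26.1 against 119 and 43.9 CPM in SCC25. In all of these the groups did not overlap, with cetuximab higher, as for 16.3% of all genes tested in SCC25, 37.4% in SCC6 and 24.7% in SCC1. The median log2 difference of the 9 genes without the block was 0.25 in SCC25, 0.30 in SCC1 and -0.14 in SCC6, with 7, 8 and 4 above 0.
With the block ITGAV rose in SCC25 (1.32 ± 0.22, FDR 0.0408) and SCC6 (1.14 ± 0.22, FDR 0.0111), and ITGB6 in SCC6 (2.06 ± 0.27, FDR 0.00277) and SCC1 (1.45 ± 0.26, FDR 0.0249). Without the block edgeR called neither in any line (ITGB6 in SCC6, FDR 0.0578), while ITGB6 in SCC6 passed with DESeq2 (FDR 0.00238), with no filter on low counts and with SCC6 fitted alone, and ITGB6 in SCC1 with no filter on low counts (FDR 0.0295). PRTN3, named after its values were seen, was called lower in SCC6 and reached at most 0.598 CPM in any sample.

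The 7 cytokines that IL-32 is known to induce split by line and replicate. Their summed level in SCC25 was 64.3 and 49.4 CPM with PBS and 389 and 54.8 CPM with cetuximab, with only replicate 1 far from the PBS samples. In SCC1 it was 386 and 379 against 806 and 143 CPM, on either side of PBS, and in SCC6 307 and 129.8 against 36.7 and 54.8 CPM, below PBS. CXCL2, a neutrophil chemokine, fell in SCC6 by 2.93 ± 0.52 without the block (FDR 0.0179). CCL2, a monocyte chemokine, was the 1 member called in SCC25 (blocked FDR 0.0183), at 0.0247 and 0.0178 CPM with PBS and 12.2 and 0.191 CPM with cetuximab. Without the block its log2 difference was 8.09, and 3.11 when cetuximab replicate 1 was left out.

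The NF-kB target list summed to 518 and 723 CPM with PBS and 2269 and 660.3 CPM with cetuximab in SCC25. In SCC1 the sums were 851 and 854 against 2185 and 611 CPM and in SCC6 2968 and 1397 against 668 and 722 CPM. Cetuximab replicate 1 was high in SCC25 and SCC1, replicate 2 of both lines lay below the highest PBS sample, and both SCC6 cetuximab samples lay below both PBS samples. The part of these genes in the level of IL32 was not tested.
The median log2 difference of the 23 genes without the block was 1.32 in SCC25, 0.65 in SCC1 and -1.17 in SCC6, beside -0.00676, 0.00120 and 0 over all genes. In SCC25 1 was called higher (CCL2), in SCC1 none was called and in SCC6 5 were called lower, of which CXCL2 and CXCL3, both neutrophil chemokines, passed without the block. LTB, the TNF family member lymphotoxin beta, was at 7.97 and 5.18 CPM with PBS and 382 and 15.9 CPM with cetuximab in SCC25 (blocked FDR 0.196) and at 28.3 and 31.0 against 190.5 and 27.1 CPM in SCC1 (blocked FDR 0.570).

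Type I interferon-stimulated genes, 30 in the list, did not overlap between groups as a sum in any line, with cetuximab higher. Of all single genes tested, 16.3% did so in SCC25, 24.7% in SCC1 and 37.4% in SCC6. The list summed to 3634 and 3752 CPM with PBS and 15479 and 6268 CPM with cetuximab in SCC25, 12444 and 7662 against 25565 and 17515 CPM in SCC1 and 155 and 211 against 269 and 346 CPM in SCC6. Much of the SCC25 sum came from 1 member, IFI27. Of the 30, 13 rose in SCC1 and 4 in SCC25, and in SCC6 6 rose and 1 fell. Without the block 1 was called, higher in SCC6. IFI27, an interferon-induced mitochondrial protein, was at 2009 and 1803 CPM with PBS and 9075 and 3414 CPM with cetuximab in SCC25 (1.52 ± 0.26, blocked FDR 0.0418), and in SCC6 it rose also without the block (FDR 0.0381), at 0.658 and 0.973 against 2.83 and 4.31 CPM.
Of 13 interferon-gamma-stimulated genes 6 rose in SCC1 and 1 in SCC25, and in SCC6 1 rose and 1 fell. Without the block none of them was called in any line. CXCL10, a T cell chemokine, was at 8.24 and 12.5 CPM with PBS and 201 and 25.1 CPM with cetuximab in SCC25 (blocked FDR 0.166) and at 27.4 and 9.66 against 402 and 69.0 CPM in SCC1 (blocked FDR 0.0439).
Of 13 genes of HLA class I presentation, which shows peptides to CD8 T cells, 3 rose in SCC1, none was called in SCC25 and 4 fell in SCC6. Without the block none of them was called in any line. B2M, the class I light chain, was at 4068 and 3218 against 7659.5 and 6159.8 CPM in SCC1 (blocked FDR 0.0477) and at 2219 and 2843 against 4741 and 3315 CPM in SCC25 (blocked FDR 0.1996). The 7 class II genes summed to at most 32.5 CPM, and 1 was called lower, in SCC6 and only with the block.

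**Figure D3:**
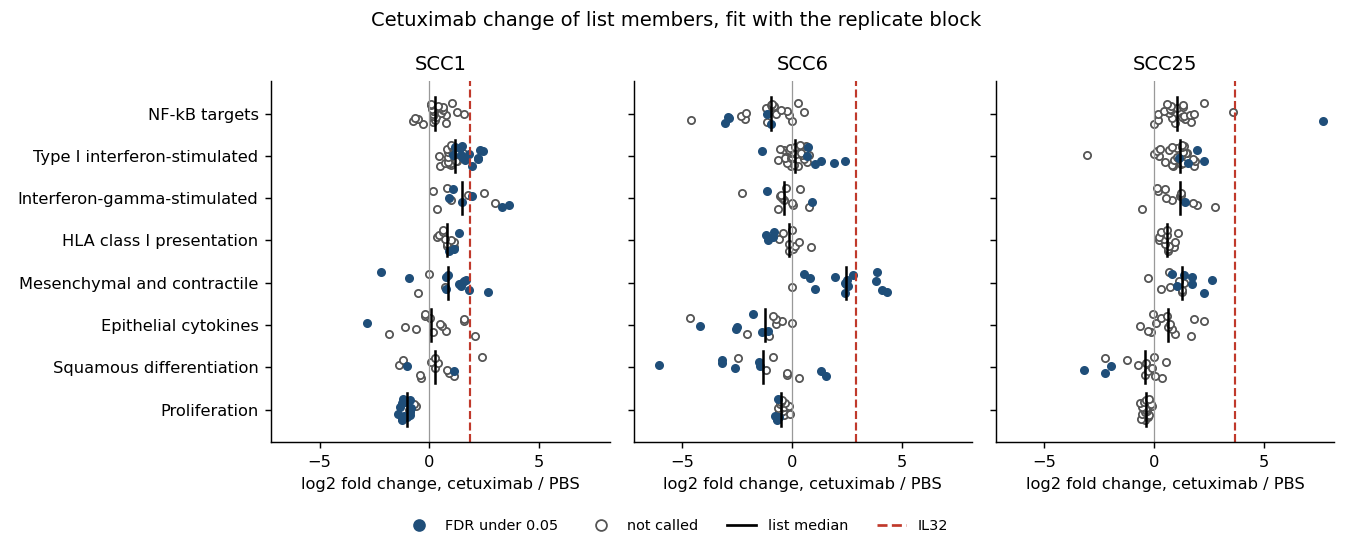
Log2 fold change of cetuximab over PBS for the tested members of gene lists in the 3 lines, from the fit with the replicate block; filled points had an FDR under 0.05, black bars are list medians and the red dashed line is IL32 (1.87, 2.92 and 3.66 in SCC1, SCC6 and SCC25). NF-kB targets lie mostly right of 0 in SCC25 and left of 0 in SCC6.

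Within SCC25, contractile and cytoskeletal genes were among those that varied most with IL32 from cell to cell. For each of 8507 genes with a mean of at least 0.1 UMI per thinned cell, Pearson's r with IL32 across cells was computed within each sample on log2(UMIs + 1) and averaged over the 4 SCC25 samples (1920 to 2503 cells each). Cells of a sample share a library, so r is a description. The highest means were those of IGFBP7, a secreted IGF-binding protein (0.39), SAA1, an acute-phase protein (0.39), MYL12A and MYL6, light chains of non-muscle myosin (0.36 and 0.35), and TAGLN, an actin-binding protein of contractile cells (0.35).
The rest of the 15 highest were KRT17 (0.34), ANXA2 (0.33), MYL9 (0.33), TPM1 (0.33), GSTM3 (0.32), TPM2 (0.30), CLIC3 (0.29), KRT7 (0.28), TUBA1A (0.28) and CD63 (0.28). MYL9 is a myosin light chain, TPM1 and TPM2 are tropomyosins, KRT17 and KRT7 keratins, ANXA2 a membrane-binding annexin and CD63 a protein of late endosomes. IGFBP7 had r of 0.30 and 0.19 in the PBS samples and 0.60 and 0.46 in the cetuximab samples. Over all 8507 genes r also spread more widely with cetuximab. Its 99th percentile was 0.145 and 0.111 in the PBS samples and 0.295 and 0.214 in the cetuximab samples. Over all genes 6 reached 0.2 in all 4 samples, 66 reached 0.1, and 36 were at or below -0.1.

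At the other end stood genes of protein synthesis and growth. RPS2, of the small ribosomal subunit, had the lowest mean r at -0.30, with -0.29 and -0.19 in the PBS samples and -0.46 and -0.27 in the cetuximab samples. It was followed by RPS29 (-0.28), HMGN2 (-0.26), RPS23 (-0.25), RPL23A (-0.25), RPL19 (-0.25), YBX1 (-0.25), SIVA1 (-0.24), HMGA1 (-0.24) and MZT2B (-0.23). HMGN2 and HMGA1 encode chromatin proteins and YBX1 a DNA- and RNA-binding protein. Of 78 ribosomal protein genes 71 had a negative r in all 4 samples, against 23.3% of all 8507 genes, and none a positive one. That share covers all genes from a mean of 0.1 UMI per thinned cell, while RPS2 had 153. It is not matched for level, nor are the shares for r given below. Since cells were thinned to 1 total, more UMIs of some genes leave fewer for others.

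The ranking used only SCC25, and SCC1 and SCC6 give the same measure in samples it did not use. In SCC1 13 of the 15 highest had a positive r in all 4 samples, against 21.2% of genes, with a median of their mean r of 0.225. The exceptions were KRT17 and CLIC3, with mean r of 0.05 and 0.0470. In SCC6, where at most 9.48% of PBS cells were positive, 8 of 15 had a positive r in all 4 samples, against 17.7% of genes, and all 15 in both cetuximab samples, against 34.6%. Of the 10 lowest, 9 were negative in all 4 SCC1 samples, against 23.9% of genes, and 7 in all 4 SCC6 samples, against 12.4%. HMGA1 was the exception in SCC1, with r of 0.0503 to 0.112.
Leading genes of SCC1 and SCC6, ranked in the same way, were named after their values were seen, and some were shared between lines. C15orf48, a small mitochondrial protein gene (0.39), LTB (0.39) and DRAM1, a lysosomal membrane protein (0.37), led in SCC1. SAA1 (0.26), C15orf48 (0.25) and LCN2, an iron-sequestering protein of inflamed epithelia (0.23), were among the leading genes of SCC6. Of the 15 leading genes of each line, SCC25 and SCC1 shared 3 (IGFBP7, MYL12A and TAGLN), SCC25 and SCC6 3 (KRT17, SAA1 and TPM1), and all 3 lines none.

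**Figure D4:**
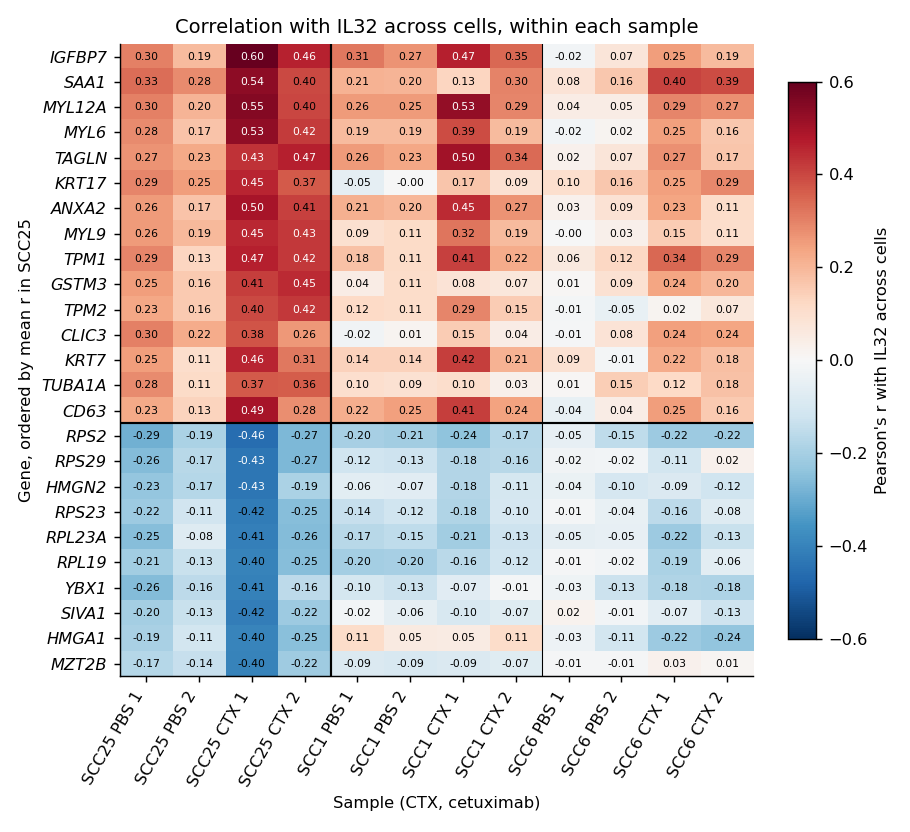
Pearson's r with IL32 across cells within each of the 12 samples for the 15 highest and 10 lowest genes of SCC25, whose samples chose the genes. In SCC1 and SCC6 most values have the same sign and are smaller, and those of the SCC6 PBS samples lie closest to 0.

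Gene lists were also scored as a whole. In SCC25 the mean log2 level of the mesenchymal and contractile list, which holds matrix genes such as FN1 and SPARC beside actin-binding genes such as TAGLN, had r with IL32 of 0.36, 0.20, 0.47 and 0.47 in PBS replicates 1 and 2 and cetuximab replicates 1 and 2. Of its 13 genes examined 12 were positive in all 4, against 21.3% of all 8507 genes. TAGLN, MYL9, TPM1 and TPM2 of this list are also among the 15 highest, so its score is not separate from that ranking. For NF-kB targets r was 0.24, 0.23, 0.31 and 0.19 in the same order, with LTB at a mean of 0.28. For HLA class I genes it was 0.20, 0.17, 0.45 and 0.13, and for type I interferon genes 0.10, 0.08, 0.29 and 0.04, a mean of 0.13 that came to 0.07 without cetuximab replicate 1. ITGAV, with a mean of 0.25, was the binding partner with the highest r.
Proliferation genes were negative in each sample (-0.06, -0.08, -0.27 and -0.17), 14 of 17 of them in all 4, against 23.3% of all genes. MKI67, a marker of cycling cells, had a mean of -0.14. Squamous differentiation genes had a list mean of -0.12. The inducing cytokines had a list mean of 0.03 in SCC25, 0.29 in SCC1 and 0.09 in SCC6, and EGFR and MAPK output genes one of -0.01, 0.03 and -0.06. NF-kB targets had a mean of 0.37 in SCC1 and 0.28 in SCC6.

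SCC25 cells ranged by their IL32 UMIs show the size of these relations. With 0, 1 to 2, 3 to 9 and 10 or more IL32 UMIs, cetuximab replicate 1 held 48, 179, 758 and 935 cells and replicate 2 852, 620, 388 and 133. IGFBP7 went from 6.88 UMIs per 10000 in cells without IL32 to 20.1 in the top range in replicate 1 and from 13.3 to 32.7 in replicate 2. TAGLN went from 1.15 to 7.67 and from 3.88 to 21.0, and SAA1 from 3.61 to 16.7 and from 0.606 to 3.75.
Cells without drug gave a like picture, but the PBS samples also took part in choosing IGFBP7, SAA1 and TAGLN. A rise of these genes with IL32 was therefore set by the choice in all 4 samples, and only its size is described. In PBS replicate 1, whose top range held 20 cells, IGFBP7, SAA1 and TAGLN were 4.31, 10.1 and 14.7 times as high there as in cells without IL32. In PBS replicate 2, where 6 cells had 10 or more UMIs and the range of 3 to 9 with 91 cells was taken as the top, they were 1.72, 3.64 and 4.39 times as high.
Other groups were lower in the top range. Summed ribosomal protein UMIs stood at 0.725 and 0.923 times the level of cells without IL32 with PBS and 0.804 and 0.826 times with cetuximab, and proliferation genes at 0.357 and 0.640 times and 0.618 and 0.269 times. Between cells without IL32 and the top range the median UMIs per cell before thinning were 42094 and 42665 in cetuximab replicate 1 and 45824 and 57978 in replicate 2, and the part of depth was not tested.

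**Figure D5:**
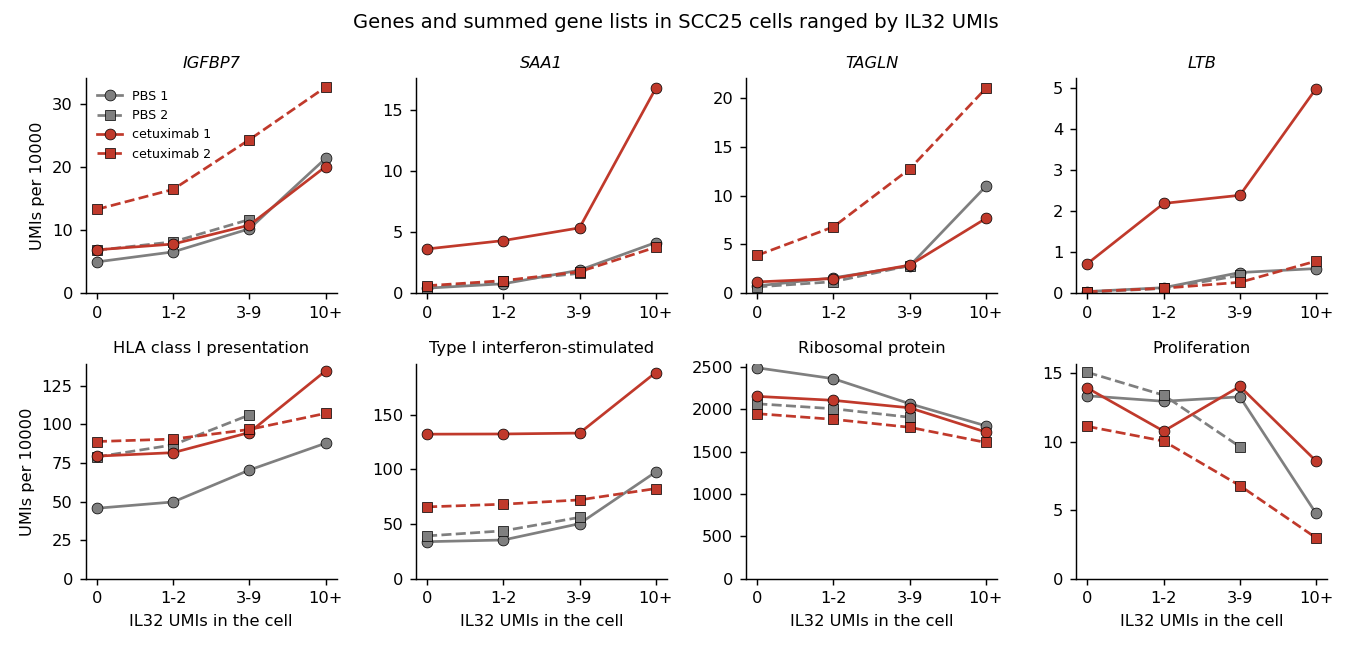
Level in UMIs per 10000 of genes and summed lists in SCC25 cells ranged by their IL32 UMIs, 1 line per sample; a range of under 20 cells is not drawn. IGFBP7, SAA1 and TAGLN, chosen by r in these samples, are highest, and ribosomal protein genes lowest, in the top range of each sample.

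Across samples, the genes that went with IL32 in SCC25 cells were mostly higher with cetuximab. Both cetuximab samples lay above both PBS samples for 14 of the 15 in SCC25, against 16.3% of genes, for 13 in SCC1, against 24.7%, and for 11 in SCC6, against 37.4%. The same SCC25 samples chose the 15, so the SCC25 count is a description and no separate support. The shares cover all 17897 genes tested, without the minimum of 0.1 UMI per thinned cell that the 15 had to reach. With the block 10 rose in SCC25, 6 in SCC1 and 10 in SCC6, where KRT7 fell. Without it edgeR called 7 higher in SCC6 and none in SCC1 or SCC25, where DESeq2 called TAGLN, MYL9, TPM1 and CLIC3 higher in both lines and MYL6 in SCC25. Of the 10 lowest, 4 fell in SCC1 and 6 in SCC6 with the block, and none was called in SCC25.
TAGLN was at 119 and 92.0 CPM with PBS and 567 and 774 CPM with cetuximab in SCC25, 165 and 177 against 967 and 1372 CPM in SCC6 and 404 and 234 against 1392 and 730.3 CPM in SCC1. Its blocked log2 differences were 2.63 ± 0.20 (FDR 0.00579), 2.53 ± 0.20 (FDR 0.000475) and 1.66 ± 0.19 (FDR 0.00649). Unlike for IL32, the higher SCC25 cetuximab sample was replicate 2.
SAA1 had the replicate pattern of IL32 in SCC25, at 61.8 and 57.3 CPM with PBS and 1039.6 and 125 CPM with cetuximab (blocked FDR 0.272). In SCC6 it was at 48.5 and 52.5 against 41.4 and 53.6 CPM (blocked FDR 0.817), with overlapping groups. Its r with IL32 across SCC6 cells was 0.40 and 0.39 in the cetuximab samples.

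The 15 measured genes of the mesenchymal and contractile list summed to 1954 and 1909 CPM with PBS and 4295 and 5013 CPM with cetuximab in SCC25, 1414 and 1763 against 8361 and 9141 CPM in SCC6 and 3306 and 2820.2 against 7084 and 5074 CPM in SCC1. Of them 7 rose in SCC25, 14 in SCC6 (9 without the block) and 10 in SCC1, where 2 fell. EGFR and MAPK output genes, which report the blocked receptor's signal, fell in SCC6 (9 of 15, and 6 without the block), with AREG, an EGFR ligand, at 515 and 115 against 7.74 and 24.7 CPM. In SCC1 1 of 15 fell and in SCC25 none was called.
Proliferation genes fell in SCC1 (13 of 17) and SCC6 (5 of 17), and none was called in SCC25. The edgeR fit without the block called none in any line, while in SCC1 MKI67 and CENPF, a kinetochore protein, passed with DESeq2 (FDR 0.00667 and 0.0199) and with no filter on low counts. Of 14 differentiation genes 3 fell in SCC25, among them LY6D, a surface protein of squamous cells, at 795 and 1761 CPM with PBS and 183 and 519.7 CPM with cetuximab (blocked FDR 0.00579), while 1 rose and 1 fell in SCC1 and 2 rose and 6 fell in SCC6. Without the block 2 of them were called lower in SCC6.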

How the data were processed

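Single-cell libraries of the 12 samples were sequenced by the submitters with a droplet method that tags the 3′ end of each RNA. Reads were aligned with Cell Ranger to GRCh38, as named in the submitters' processing notes, with the version not given in the sources used here. The deposited values are UMI counts per gene and cell, with no normalisation, in 1 table per line with sample names in the cell table. The tables held 33538 rows and 33514 symbols, with rows of the 24 repeated symbols summed, and 0 columns of values were left unused. Cells were used as deposited, with no clustering and no doublet caller. Counting 3′ tags per gene does not separate the transcripts of IL32, and levels of different genes were not compared.

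IL32, the gene lists and the comparisons were chosen with earlier results of these data known. UMIs were summed per sample and tested with edgeR 4.0.16 in R 4.3.3 (quasi-likelihood F-test, TMM factors, filterByExpr, 6 groups in 1 fit with 6 residual degrees of freedom, two-sided, Benjamini-Hochberg adjustment over 17897 genes, threshold 0.05). The replicate block adds a term for the replicate number in each line and leaves fewer residual degrees of freedom. DESeq2 1.42.0 was an alternative. For shares and correlations each cell was thinned to 15000 UMIs (NumPy 2.4.6, pandas 2.3.3, SciPy 1.17.1, Python 3.11.15). The edgeR fit without the block and the correlation step were run on simulated data. For edgeR the simulated spread between samples was smaller than the one estimated here, and the blocked fit was not run on simulated data. Named genes were IL32, the 15 highest and 10 lowest by mean r in SCC25 with 1 sign in all 4 samples, up to 4 members of each list by size of r and up to 3 called members by FDR, and up to 5 protein-coding neighbours on each side. Some results of the ranking by r are not reported here.

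Nothing in the labels says what the replicate numbers share. Samples with the same number deviated together from their group means, with r of 0.677 in SCC1, 0.630 in SCC6 and 0.723 in SCC25 over 7583 genes, so the numbers were treated as pairs and the fit with the replicate block is given beside the one without it. Promoter sequences and gene positions came from RefSeq on GRCh38.p14. The alternatives were other size factors, DESeq2, no filter on low counts, the block, each line alone, each replicate left out, other thinning depths and cell filters, a positive cell defined at 3 UMIs, and rank correlation.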

Additional observations from a re-analysis of the deposited data

Results flagged for a closer look

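KRT7, a keratin of simple epithelia and 1 of the 15 genes that went with IL32 in SCC25 cells, differed in direction between lines. Its blocked log2 difference between cetuximab and PBS was 0.60 in SCC1 and 0.85 in SCC25 but -0.80 in SCC6. Every cetuximab sample lay above both PBS samples of its line in SCC1 and SCC25, and below both in SCC6. The difference between lines was not tested.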

How the results depend on the processing

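The number of genes called depended on the fit. In SCC1, SCC6 and SCC25 it was 3, 682 and 0 without the block, 797, 3589 and 175 with the replicate block, which uses the pairing of replicate numbers, 270, 1666 and 100 with DESeq2, 243, 1233 and 128 with no filter on low counts, and 0, 265 and 0 with each line alone. Leaving out each replicate gave 0 to 6, 11 to 749 and 0 to 1. Of the named genes, 23 calls made without the block were kept with it, 66 more were gained and 10 were lost with each line alone. The estimate of KRT13, a keratin of non-cornified squamous layers, in SCC25 (-1.59) ran from -4.92 to 0.28 as replicates were left out, the last without PBS replicate 2.

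The log2 difference of IL32 moved as replicates were left out. It ran from 0.72 to 2.98 in SCC1, 2.604 to 3.249 in SCC6 and 2.44 to 4.79 in SCC25. Its sign was set beforehand, since every cetuximab sample lay above both PBS samples of its line, and is no separate support. The difference in positive share ran from 8.69 to 51.7, 31.1 to 33.1 and 36.2 to 76.4 percentage points. In SCC6 it was 38.2 with no thinning, 23.9 at 8000 UMIs and 13.8 with positive cells defined at 3 UMIs. The mean r with the interferon list was 0.070 to 0.16, and 13 to 14 of the 15 highest genes were shared as replicates were left out. The cause of these shifts was not tested. With 2 samples per group, the 2 cetuximab samples of SCC25 and SCC1 limit how well the size of the difference is known.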
